A study of Mus musculus with 2 samples.

Results

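The expression of 10 genes of the Notch signalling pathway was followed in mouse embryonic stem cells that carried a short hairpin RNA (shRNA) against Mll2: the ligand genes Dll1, Dll3, Jag1 and Jag2, the receptor genes Notch1, Notch2 and Notch3, the DNA-binding effector gene Rbpj, and the target genes Hes1 and Hes5. The members were all probe sets whose platform annotation gave 1 of these symbols and no other, which were 19 of the 45037 probe sets that are not controls. They stand for 10 of 18193 named genes. Of the members, 3 had 1 probe set (Dll1, Dll3 and Hes1), 5 had 2 and 2 had 3 (Jag1 and Rbpj).

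The cells were E14, an established mouse embryonic stem cell line. The group under study, Mll2 shRNA, had been infected with lentivirus expressing the shRNA against Mll2, and the other group, control shRNA, with lentivirus expressing a control shRNA. The protocol attached to both arrays gives 24 h of infection and then 5 days of puromycin selection, so both groups share virus, hairpin expression and drug. Messenger RNA was read on 1 Affymetrix array per group, so there is no spread between replicates, no test could be run between the groups, and every difference is one between these arrays. A higher or lower signal in such a bulk sample cannot tell a change in RNA per cell from a change in the share of cells that express the gene.

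In Notch signalling a ligand on one cell binds a receptor on its neighbour. The receptor is then cut by an ADAM protease and by gamma-secretase, and its intracellular part enters the nucleus, joins RBPJ and a Mastermind coactivator, and turns on targets such as Hes1 and Hes5. HES proteins are basic helix-loop-helix repressors. Among the genes they repress are proneural factors and Dll1 itself. In embryonic stem cells the pathway is best known for favouring neural fate as the cells leave pluripotency, and Hes1 is known to oscillate and to vary from cell to cell.

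The bases before the start site are shown first, since RBPJ acts through DNA and its core letters are TGGGAA. They are given for the members whose difference between the arrays was larger than the spread of genes of like level, explained further on, which were Dll1, Jag1, Rbpj, Hes1 and Hes5. For Hes5, which was dim, that spread is narrowed by the treatment of low values. The RefSeq promoter table (GRCm38.p6) held 11 promoters for 9 of the 10 members, and Hes1 had no entry. The promoters of the other members were searched but are not shown. For each, the 250 bases before the annotated start were searched on both strands. The runs below read 5′ to 3′ on the gene's strand and end at the base before the start. Capitals mark TGGGAA or its reverse complement TTCCCA. For Dll1 and Rbpj, which have more than 1 annotated start in the table, the start farthest upstream is shown.
Hes5, chr4:154960673-154960922, plus strand: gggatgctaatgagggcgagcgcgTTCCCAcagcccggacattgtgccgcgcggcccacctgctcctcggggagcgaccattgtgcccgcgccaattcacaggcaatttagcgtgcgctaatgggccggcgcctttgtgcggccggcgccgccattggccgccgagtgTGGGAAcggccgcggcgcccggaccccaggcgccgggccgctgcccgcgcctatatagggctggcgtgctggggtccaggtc
Rbpj, chr5:53590096-53590345, plus strand: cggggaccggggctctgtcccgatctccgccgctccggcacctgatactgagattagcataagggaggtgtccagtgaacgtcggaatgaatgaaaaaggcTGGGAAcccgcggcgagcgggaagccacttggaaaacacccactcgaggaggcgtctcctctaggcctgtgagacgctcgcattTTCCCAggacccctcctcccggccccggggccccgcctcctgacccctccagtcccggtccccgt
Dll1, chr17:15376933-15377182, minus strand: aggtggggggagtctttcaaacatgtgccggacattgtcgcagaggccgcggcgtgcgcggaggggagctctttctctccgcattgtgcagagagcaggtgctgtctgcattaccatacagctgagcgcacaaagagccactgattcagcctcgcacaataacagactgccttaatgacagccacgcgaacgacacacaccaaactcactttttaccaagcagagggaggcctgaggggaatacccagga
Jag1, chr2:137116521-137116770, minus strand: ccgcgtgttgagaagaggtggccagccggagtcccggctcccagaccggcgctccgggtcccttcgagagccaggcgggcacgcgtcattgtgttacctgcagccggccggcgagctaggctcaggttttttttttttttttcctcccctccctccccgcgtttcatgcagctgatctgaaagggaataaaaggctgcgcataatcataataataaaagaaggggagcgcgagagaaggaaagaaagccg

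The Hes5 run holds the core 2 times, once on each strand, with first bases 226 and 82 before the start. The Rbpj run also holds it 2 times, with first bases 149 and 65 before the start, and the Dll1 and Jag1 runs do not hold these letters. In all, 3 of the 11 member promoters (27.3%) held the core, all of them of Rbpj or Hes5, against 21.6% of the 32851 promoters in the table, and 2.77% of those held it 2 or more times. The 2 Rbpj promoters overlap and share 1 match, which is counted in both. By gene, 2 of the 9 members with a promoter held the core, so no excess is read from these shares. The N-box letters CACNAG, bound by HES1, were in 3 of the 11 (27.3%), those of Notch1, Notch2 and Notch3, against 36.7% of all promoters. No member promoter held both motifs. The member promoters were rich in G and C, with a median GC content of 66.0% against 52.4% over the table, and their observed over expected CpG count had a median of 0.82 against 0.37. These matches describe letters only.

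Signals are MAS5 values, given as linear signals or on the log2 scale, and a log2 ratio is Mll2 shRNA over control shRNA. Because mismatch subtraction makes dim probe sets unreliable, values under the 50th percentile of the pooled arrays, a log2 value of 6.02 and a linear signal of 64.7, were raised to it, and this percentile is called the floor. A probe set that exceeded the floor on either array was measured, and where it exceeded it on 1 array only, its ratio is a lower bound in size. In place of replicate error, each ratio is set beside the spread at its level, which is the median absolute deviation, scaled to match an SD, among the 500 measured probe sets (for a gene, the 500 genes) nearest in mean level. That spread holds real differences as well as noise. At and under the floor it is also narrowed, because signals of dim neighbours were raised to the floor as well.

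The name Mll2 has been used for both Kmt2d and Kmt2b, which encode histone H3 lysine 4 methyltransferases, and the labels do not say which was targeted. Kmt2d had a signal of 335 in Mll2 shRNA and 736 in control (2.20-fold lower), a log2 ratio of -1.14 against a spread of 0.33. This rests on 1 probe set, since the other was under the floor on both arrays, at 27.4 and 42.3. Kmt2b had 852 and 901. The arrays had median log2 values of 6.01 and 6.02. The 10 markers of embryonic stem cells were all above the floor on both arrays, 5 with a ratio above 0 and 5 below. Their ratios ran from -0.44 (Pou5f1, spread 0.19) to 0.59 (Klf4, spread 0.20), so both ends passed their spread. Of 8 fibroblast markers 4 were measured, and of 5 endothelial markers 4. For beta-actin, a control for RNA quality, the 3′ minus 5′ difference was 0.77 in Mll2 shRNA and 0.96 in control.

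The data show lower signal for the ligand gene Dll1 and for the brightest Jag1 probe set, while another Jag1 probe set showed no difference. Rbpj and the targets Hes1 and Hes5 had higher signal, Hes5 as a lower bound from a dim probe set. The receptors had ratios within the spread at their level. Rbpj (0.35) and Notch1 (-0.34) were alike in size, but only Rbpj passed its spread, and it did so in every probe set. One member gene was at least 2-fold apart, Dll1, which was lower. That is 1 of 10 genes, where 2.45% of the 11805 measured genes were 2-fold apart in either direction and 0.983% were 2-fold lower. At 1.5-fold or more, 4 members were apart, 2 lower (Dll1 and Jag1) and 2 higher (Hes1 and Hes5). Of all measured genes 12.1% were, 4.68% lower and 7.4% higher. Hes5 was under the floor in control, so its direction was set by which array passed the floor. Its other probe set was under the floor on both arrays. The median log2 ratio of the 10 members was 0.17, with 6 above 0 and 4 below, and that of all measured genes was 0.03. The members were proposed with results of these arrays known, so these shares describe them and nothing more is read from them.

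**Figure D1:**
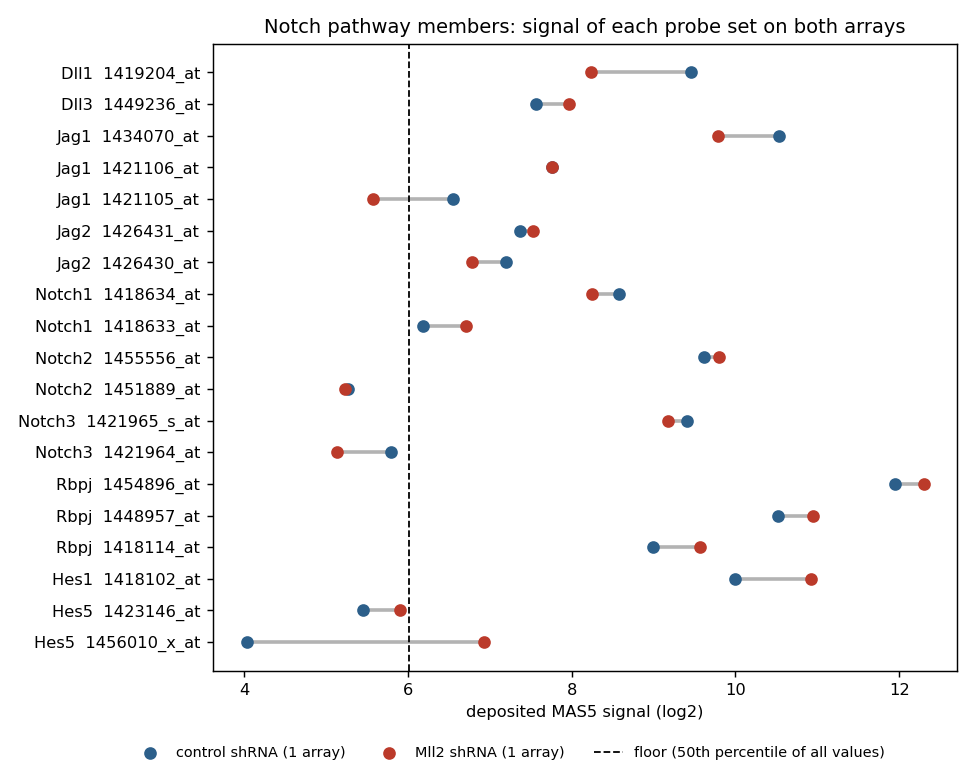
Deposited MAS5 signal on the log2 scale (horizontal axis) of all 19 member probe sets, 1 per line, in the Mll2 shRNA array (red) and the control shRNA array (blue), with the floor at 6.02 as a dashed line. Dll1 and 2 of 3 Jag1 probe sets lie further left in Mll2 shRNA, all 3 Rbpj probe sets, Hes1 and both Hes5 probe sets further right, and 3 probe sets lie under the floor on both arrays.

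Ligand genes were examined first. Dll1 encodes a Delta ligand that activates Notch receptors on neighbouring cells and is known from somites and neural progenitors. Its only probe set (1419204_at) had a signal of 301 in Mll2 shRNA and 703 in control. This is 2.33-fold lower, a log2 ratio of -1.22 where the spread at that level was 0.34. Both signals lay well above the floor, so the size does not depend on it. Under the other array scalings the ratio ran from -1.29 to -1.10.

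Jag1 encodes a Jagged ligand. Its brightest probe set (1434070_at) had a signal of 886 in Mll2 shRNA and 1478 in control, a log2 ratio of -0.74 against a spread of 0.31. The second (1421106_at) gave 217 on both arrays, a ratio of -0.0005. The third (1421105_at) had 47.7 in Mll2 shRNA, under the floor, and 94.1 in control, so it was lower by at least 1.45-fold. The brightest and the dimmest of these probe sets thus gave lower signal in Mll2 shRNA and the one between them no difference. Those above the floor in both groups averaged -0.37 ± 0.52 (SD over 2 probe sets of 1 array pair), and the mean over all 3, with the dimmest at its bound, was -0.43, so the size for the gene is not settled.

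Dll3 and Jag2 differed by less than the spread. Dll3, a divergent Delta protein that does not activate receptors from outside the cell and instead dampens signalling within it, had a signal of 251 in Mll2 shRNA and 190 in control. Its log2 ratio of 0.40 compares with a spread of 0.43. Jag2, the other Jagged ligand, had 184 and 166 in its brighter probe set and 110 and 147 in the other. Those ratios, 0.16 and -0.42, point opposite ways and each is within its spread of 0.44 and 0.49. Their mean was -0.13 ± 0.41 (SD over 2 probe sets), so no direction can be given for Jag2.

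Receptor genes were then compared. Notch1 had a signal of 303 in Mll2 shRNA and 383 in control in its brighter probe set (1418634_at) and 104 and 72.6 in the dimmer (1418633_at). The ratios were -0.34 and 0.52, both within their spreads of 0.34 and 0.55, and their mean was 0.09 ± 0.61 (SD over 2 probe sets). The probe sets of Notch1 disagreed in direction, so that no direction is given for this receptor either.

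Notch2 had a signal of 889 in Mll2 shRNA and 782 in control (1455556_at, log2 ratio 0.18, spread 0.30). Its second probe set was dimmer than the floor in both groups, with log2 values of 5.23 and 5.27. Notch3 had 581 and 679 (1421965_s_at, log2 ratio -0.23, spread 0.32), and its second probe set was also under the floor, at 5.13 and 5.80. All 3 receptor genes were thus above the floor on both arrays, and in all 3 the difference stayed within the spread at its level. For Notch3 this rests on a probe set whose suffix, _s_at, marks probes that can be shared between transcripts. Without suffixed probe sets Notch3 was not measured.

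Rbpj encodes the DNA-binding protein through which all Notch receptors act, and which represses the same targets when no receptor fragment is present. Its probe sets had signals of 5035 in Mll2 shRNA and 3958 in control (1454896_at), 1968 and 1472 (1448957_at), and 761 and 510 (1418114_at). Each was higher in Mll2 shRNA, with log2 ratios of 0.35, 0.42 and 0.58 against spreads of 0.21, 0.25 and 0.32. The mean was 0.45 ± 0.12 (SD over 3 probe sets). Rbpj was the only member with more than 1 measured probe set in which every one had a ratio past its spread in 1 direction. The differences are small, and none of the 3 reached 1.5-fold.

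Hes1, the HES repressor best known from embryonic stem cells, had a signal of 1949 in Mll2 shRNA and 1021 in control in its only probe set (1418102_at). This is 1.91-fold higher, a log2 ratio of 0.93 against a spread of 0.29. It fell short of 2-fold as deposited and under median centring, quantile normalization and loess, and passed it with both arrays scaled on the bacterial spike-in controls, where the log2 ratio was 1.05. That scaling raises the median of all measured genes from 0.03 to 0.14.

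Hes5, a HES repressor of neural progenitors, was dim. Its probe set 1456010_x_at had a signal of 122 in Mll2 shRNA and 16.3 in control. The control value is under the floor, so Hes5 was higher by at least 1.89-fold (log2 ratio 0.92). The deposited values themselves differ by 2.90 on the log2 scale, a size that rests on the dim control value. The suffix _x_at marks probes that can also detect other transcripts. The other probe set, 1423146_at, was under the floor on both arrays at 59.8 and 43.6. It gives Hes5 a log2 ratio of 0.46 when the floor is moved to the 30th percentile and this probe set stands for the gene.

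**Figure D2:**
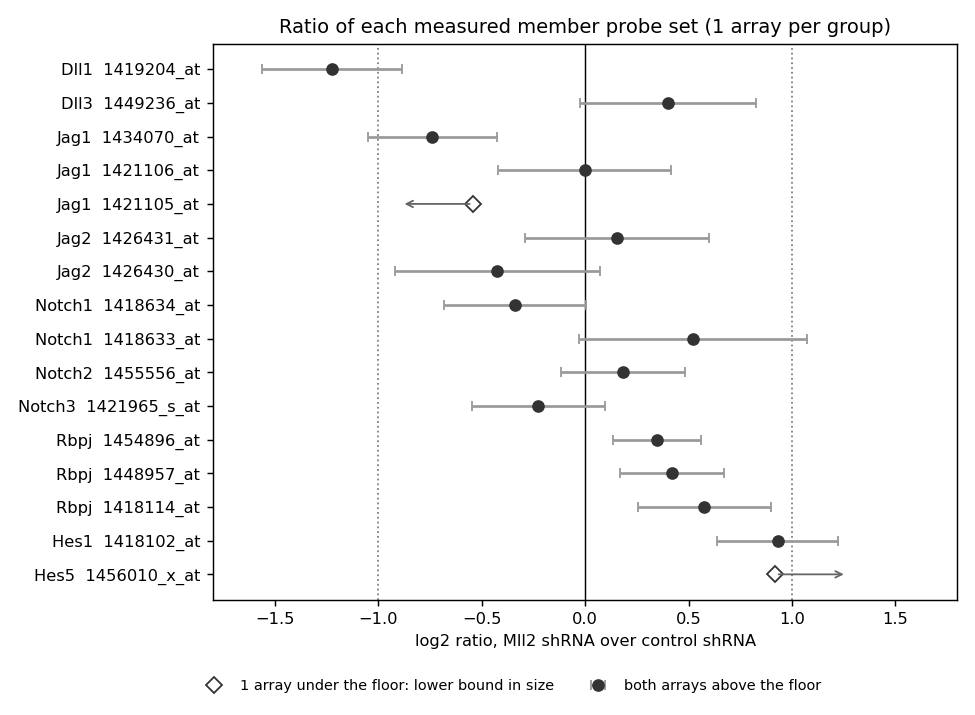
Log2 ratio of Mll2 shRNA over control shRNA (horizontal axis) for the 16 measured member probe sets, 1 array per group; bars on filled points are the spread at that level on either side, dotted lines mark 2-fold, and open diamonds with an arrow are lower bounds in size. Dll1 lies beyond 2-fold on the left, the 3 Rbpj probe sets, Hes1 and Hes5 lie right of 0, and the probe sets of Jag2 and of Notch1 fall on both sides of 0.

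The probe sets were also counted together. Of the 19, 16 were measured, 14 in both groups and 2 in 1 group (a Jag1 and a Hes5 probe set). The counts that follow leave out the 3 dim ones, of Notch2, Notch3 and Hes5. Of the 16, 9 had a ratio above 0 and 7 below, and 1 was 2-fold apart and lower, where 2.21% of 24071 measured probe sets were 2-fold apart, 0.91% lower and 1.3% higher. At 1.5-fold or more 4 of the 16 were apart, where 12.4% of all measured probe sets were. Ratios larger than the spread at their level were found in 8 of the 16, and in 33.4% of all measured probe sets. The 8 include the Jag1 and Hes5 bounds, whose direction was set by which array passed the floor. For Hes5 the spread was only 0.22, because its dim neighbours were raised to the floor too, so passing it says little. Of the 4 genes with at least 2 measured probe sets, Rbpj had all above 0, Jag1 all below or at 0, and Jag2 and Notch1 one on each side.

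Other genes of the pathway were taken from role lists written from general knowledge. Of 85 such genes, 78 had a probe set naming them alone, 62 were measured and 57 exceeded the floor in both groups. None was 2-fold higher and 2 were 2-fold lower, both as lower bounds, which is 3.23% of those measured beside 2.45% of all measured genes. Their median log2 ratio was 0.03, as was that of all measured genes, with 34 above 0 and 28 below.

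Among the other ligands and ligand-like genes, 4 of 6 were measured. Dlk2, a Delta-like protein that lacks the receptor-activating domain, had a signal of 61.2 in Mll2 shRNA, under the floor, and 186 in control, and was at least 2.87-fold lower. Its second probe set, with 62.3 and 127, gave a log2 ratio of -0.97, again a lower bound in size. Both Dlk2 probe sets carry suffixes for shared probes. Dlk1 was at -0.48, within a spread of 0.58, and Egfl7 at -0.19. Dll4, the remaining Delta ligand gene, was not above the floor on either array, and Notch4, the remaining receptor gene, reached a signal of 67.8 in control and 50.5 in Mll2 shRNA.

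Genes that prepare ligands and receptors were then examined. The 4 measured ubiquitin ligase genes that drive ligand endocytosis had ratios from 0.15 to 0.21, with Mib1 at 0.21 and Neurl1a at 0.17, all within their spreads. Among genes of receptor glycosylation and furin, Mfng, a Fringe glycosyltransferase that alters which ligands a receptor answers to, had a signal of 56.1 in Mll2 shRNA and 144 in control and was at least 2.22-fold lower in its only probe set. Pofut1, which adds O-fucose to the receptors, was at 0.23 and the Fringe gene Rfng at -0.18. In the list of ADAM proteases and gamma-secretase, 7 of 9 genes were measured and none was 2-fold apart. Psenen, a gamma-secretase subunit, was at 0.53 against a spread of 0.22, and the protease gene Adam17 at -0.43 against 0.28.

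Among genes of receptor trafficking and turnover, all 11 were measured, with a median of 0.04. Dtx3 was at 0.84 and Dtx1 at -0.66, both Deltex family genes. Coactivators had a median of 0.04 over 6 genes (-0.0037 with the mean over probe sets), with Maml1, a Mastermind coactivator, at 0.36 and the acetyltransferase Kat2b at 0.30. Corepressors had a median of 0.08 over 11 genes. Spen, a corepressor that binds RBPJ, had a signal of 136 in Mll2 shRNA and 71.9 in control, a log2 ratio of 0.92 against a spread of 0.48, and its control value lay close to the floor. Cir1, another RBPJ corepressor, was at -0.39.

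Other HES-related repressors and Notch targets were listed as well. Of the other HES, HEY and related repressors 4 of 10 were measured, with a median of -0.33. Hes6, which opposes HES1, was at -0.43 in its brighter probe set and -0.11 in the other, and Bhlhe40, a related repressor, had a signal of 1062 in Mll2 shRNA and 1865 in control (log2 ratio -0.81, spread 0.27). The remaining measured genes of that list, named outside the naming rule, were Hey1 at 0.09 and Hey2, whose signal in Mll2 shRNA was under the floor, at -0.22. Among the further targets 6 of 8 were measured, 2 above 0 and 4 below, with a median of -0.44, which became -0.27 with the mean over probe sets and turned to 0.04 without suffixed probe sets. Nrarp, a feedback inhibitor of Notch, had 249 in Mll2 shRNA and 392 in control (-0.66, spread 0.39), but its second probe set, close to the floor, gave -0.03. Nfkb2 was at -0.65. Named outside the rule, the targets above 0 were the cell cycle inhibitor gene Cdkn1a at 0.50 and Gata3 at 0.37. The remaining targets below 0 were Myc at -0.59 (spread 0.26) and Ccnd1 at -0.29 (spread 0.22). Myc and Nfkb2 had suffixed probe sets only, so both drop out of the median without suffixed probe sets. Whether the genes of these lists differ from Hes1 and Hes5 was not tested.

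**Figure D3:**
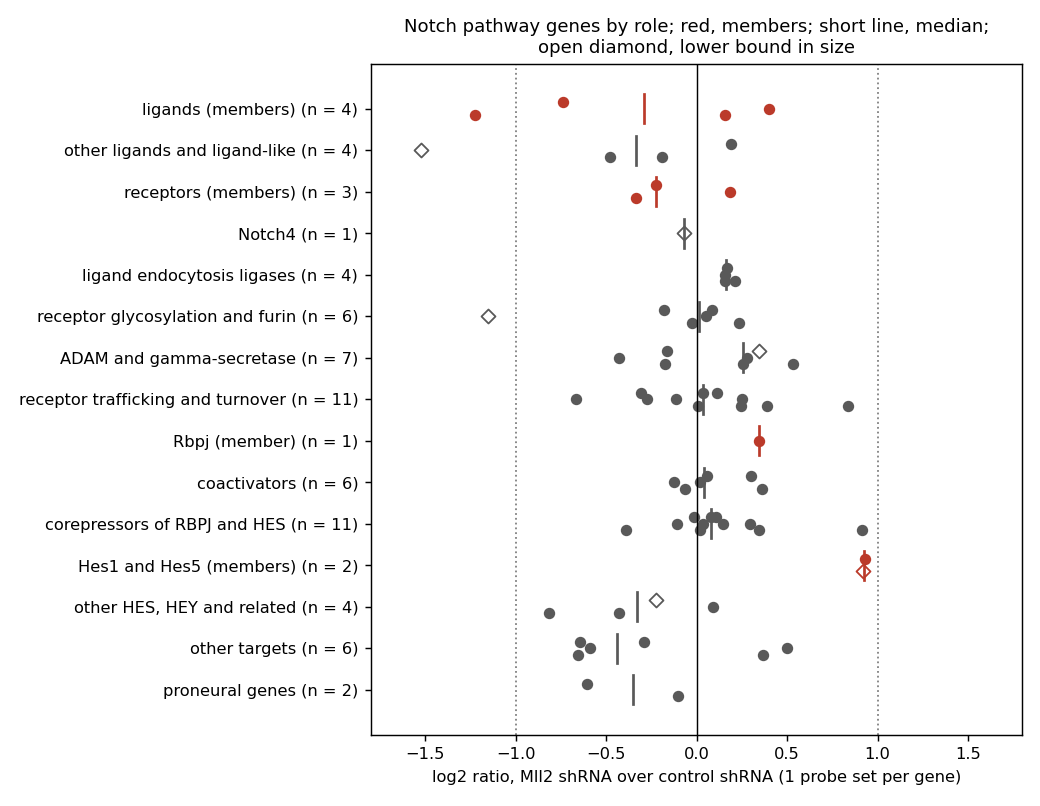
Log2 ratio of Mll2 shRNA over control shRNA (horizontal axis), 1 point per measured gene, by role in the pathway; members are red, other genes grey, open diamonds are lower bounds in size, short vertical lines are medians, and dotted lines mark 2-fold. Hes1 and Hes5 lie near 0.92, whereas the medians of the other HES, HEY and related genes and of the other targets lie at -0.33 and -0.44, the latter turning to 0.04 without suffixed probe sets.

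Cell types in which Notch genes are known to be active were checked by their markers. Of 8 neural progenitor markers 6 were measured, 3 above 0 and 3 below, with a median of -0.02, which became 0.10 with spike-in scaling and 0.06 with the 70th percentile floor or without suffixed probe sets. Their summed signal was 2037 in Mll2 shRNA and 2009 in control. Sox1, which marks early neural progenitors, was 2.51-fold higher, with 286 against 114, Pax6 was at 0.06, Otx2 at -0.48, while Neurog2 was not above the floor on either array. Of the proneural genes that HES proteins repress, 2 of 7 were measured, Neurog3 at -0.60 and Neurod1 at -0.10. Of 5 markers of somite and presomitic mesoderm 2 were measured, Tcf15 at 0.47 and Mesp2 at 0.53, with a summed signal of 2718 and 1963. Tcf15 alone made 2585 and 1871 of it, while Tbx6, Msgn1 and Hes7 were not above the floor on either array. The 4 measured endothelial markers had a summed signal of 739 and 496, of which Tek, the angiopoietin receptor gene, made 493 and 225. Their median was -0.12, with 2 above 0 and 2 below, and turned to 0.44 without a floor. Kdr was at -0.26 and Cldn5 at -0.62, while Pecam1 was not above the floor. The part of these cell types in the Dll1, Jag1 and Hes differences was not tested.

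The member ratios were recomputed under 4 other array scalings, 4 other treatments of low values and 2 other rules for the probe set that stands for a gene. Dll1 stayed at 2-fold or more and lower in all of them, Jag1 stayed lower, and Rbpj and Hes1 stayed higher. The direction of Jag2 and of Notch1 turned when all measured probe sets were averaged, to -0.13 and 0.09. Hes5 stayed higher wherever it was measured, but its size depended on the floor and on the probe set. The reported probe set gave 2.26 with the 30th percentile floor and 2.90 with none. With the 30th percentile floor the other probe set stood for the gene, at 0.46. The Dll3 ratio was 0.01 in place of 0.40 with the floor at the 70th percentile.

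**Figure D4:**
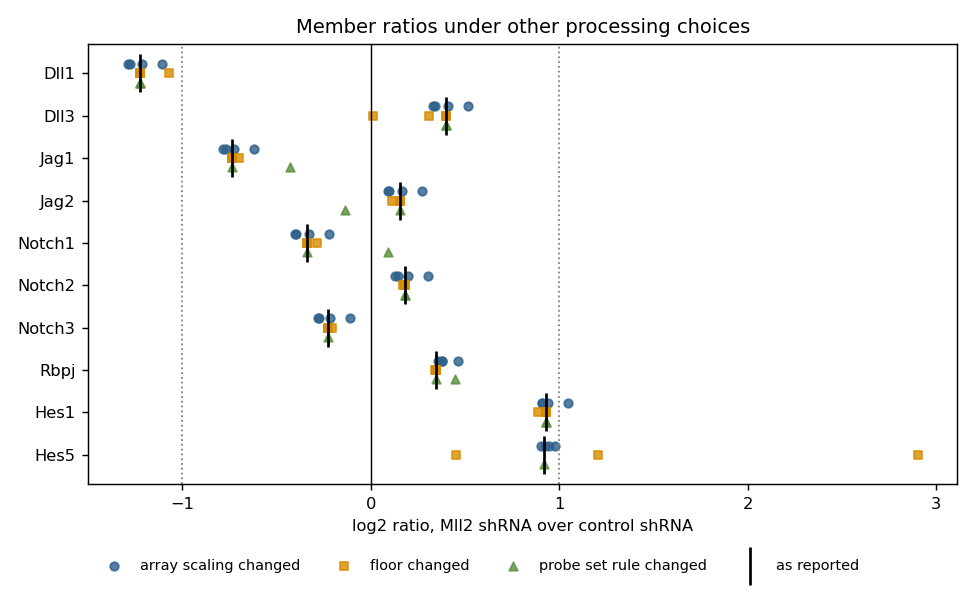
Log2 ratio of Mll2 shRNA over control shRNA (horizontal axis) for each of the 10 member genes as reported (black bar) and under other array scalings (blue), floors (orange) and probe set rules (green), with dotted lines at 2-fold. Dll1 stays left of -1 throughout, Hes1 lies close to 1, and Jag2 and Notch1 have a green point across 0. Hes5 runs from 0.46, where its other probe set stands for the gene, to 2.90.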

How the data were processed

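Expression was measured on 2 Affymetrix 3' arrays, 1 per group, in E14 cells. The deposited values of 45101 probe sets are log2 MAS5 signals made by the authors, per the submitters' processing notes. Its version is not given in the sources used here. On the linear scale the 2% trimmed mean was 500.0 on both arrays. The 64 control probe sets were left out. The platform annotation gave 34945 of the others 1 symbol, 932 several and 9160 none, and 34741 symbols were updated by Entrez number to RefSeq (GRCm38.p6). Log2 values were used as deposited, with a floor at the 50th percentile. A gene was represented by its measured probe set with the highest mean. Mismatch subtraction makes dim values noisy, and the number of arrays limits precision.

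No test between groups, replicate block or leave-one-out was possible. Named were all 10 members, Kmt2d and Kmt2b, and, of each role list, every gene at 2-fold or more and the 2 widest ratios above the floor on both arrays; others are marked or are markers or remaining family members. The members and lists were chosen with earlier results of these data known. Likeness to other genes' patterns is not given, since 2 arrays hold 1 difference. Steps were tested on simulated data with planted changes of 3-fold or more in genes well above the floor. That test does not cover differences of about 2-fold or less, nor dim probe sets. Alternatives were other scalings, floors, a pseudocount, thresholds and probe set rules. Python 3.11.15, numpy 2.4.6, pandas 2.3.3, R 4.3.3 and limma 3.58.1 (loess, span 0.3) were used.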

Additional observations from a re-analysis of the deposited data

How the results depend on the processing

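No paired analysis was possible because each group has 1 array, and no array could be left out. As reported, 0 member genes were 2-fold higher and 1 lower, and 0 and 2 of the other pathway genes. Spike-in scaling (18 probe sets, mean difference -0.12) gave 1 higher member gene and probe set (Hes1), 1 higher other pathway gene, a member median of 0.29 over genes and over probe sets (0.17 as reported) and a pathway median of 0.14 (0.03 as reported). No floor and a pseudocount equal to the floor each gave 1 higher member gene and probe set, Hes5 (2.90 and 1.21), and the 30th percentile floor 1 higher member probe set, again of Hes5. Among all measured genes, 173 were higher as reported and 258 with spike-in scaling. Without a floor 380 were, with the pseudocount 87 and with the 30th percentile floor 494. With the 70th percentile floor 8 members were measured and their median was -0.11. That floor, the pseudocount and the 3-fold threshold left 0 lower pathway genes, and leaving out suffixed probe sets left 1. The lower genes among all measured went from 116 as reported to 38, 70, 18 and 90 in these settings. At 1.5-fold, 2 member genes and probe sets were higher and 2 lower, and 2 and 8 of the 62 measured other pathway genes. Of all measured genes 7.4% were 1.5-fold higher and 4.68% lower. At 3-fold, 0 members were lower. Among single members, Jag1 (1421105_at) reached -0.98 with the 30th percentile floor or none, and the mean over probe sets moved Jag1 to -0.43. Median centring and spike-in scaling turned the Jag1 probe set at -0.0005 to 0.01 and 0.12. Of the remaining values, 284 for single genes or probe sets moved by less than the spread at their level. That count overstates stability, since it includes the 1.5-fold and 3-fold thresholds, which cannot change a ratio. It also counts a member both as a gene and as the probe set that stands for it. Dim probe sets limit Hes5 and the second probe sets of Notch2 and Notch3.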

Other observations

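Of the 117 measured probe sets of the other pathway genes, 4 differed by at least 2-fold, where 2.21% of all measured probe sets did. Of these 4, 2 do not stand for their gene, and both were picked out after their values were seen. A second probe set of Mib1, the ubiquitin ligase that drives ligand endocytosis, had a signal of 415 in Mll2 shRNA and 188 in control, a log2 ratio of 1.14, whereas its other 2 probe sets gave 0.21 and 0.10. The dimmest Tle4 probe set, of a Groucho family corepressor that binds HES proteins, had 61.4 in Mll2 shRNA, under the floor, and 177 in control, so it was lower by at least 2.74-fold, whereas the brighter ones gave -0.11 and -0.38. In both genes the brightest probe set had a small ratio. Probe sets of 1 gene can read different ends or forms of its transcripts.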
